A study of Drosophila melanogaster with 8 samples.

Results

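The RNA of 6 families of gypsy-type endogenous retroviruses (ERVs) was followed in Drosophila melanogaster ovaries: gypsy, gtwin, gypsy3, gypsy6, gypsy10 and springer. They were taken by exact family name from the 111 transposable element (TE) families in the 2 deposited tables. All 6 were present in both tables, and the rule used names only. Polyadenylated RNA of pooled ovaries was sequenced in 8 samples, which fell into 4 groups of 2 biological replicates.

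In the no-KD and piwi-sKD groups the flies had the same genotype, with w, tj-GAL4, tubP-GAL80[ts] and sh-piwi. The no-KD flies were kept at 20°C, and the piwi-sKD flies spent their last 5 days at 25°C. The other groups carried single copies of tj-GAL4 and of GAL80[ts] with sh-piwi, and both are labelled 25°C for the last 5 days. Opposite sh-piwi they carried sh-w in piwi-sKD,ctrl-sKD (the control hairpin, against white) or sh-dcr2 in piwi-sKD,dcr2-sKD. Below they are the sh-w and the sh-dcr2 samples. The hairpin against piwi was thus present in all 8 samples, including no-KD, where the thermosensitive GAL80 is meant to hold GAL4 inactive. The tj promoter restricts the knockdown to the somatic follicle cells, but whole ovaries were measured, germline included. In such bulk samples, fewer cells of a type and less RNA per cell cannot be told apart. The rows used here are TE families, so ovary markers and the targeted genes, piwi and Dcr2, were left unanalysed here.

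ERVs of the gypsy type are LTR retrotransposons whose proviruses carry gag and pol, and in families such as gypsy and gtwin also an env gene like that of vertebrate retroviruses. Gypsy is the classical case: in follicle cells it is silenced by Piwi, loaded with piRNAs from flamenco (flam), an X-linked locus made largely of TE fragments and transcribed from a single promoter. Where it is not silenced there, it can pass into the germline. Gtwin is its close relative, and springer is another LTR family with an env-like reading frame. Gypsy3, gypsy6 and gypsy10 were named from the genome sequence and are less studied. Dcr2, the target of the second hairpin, cuts double-stranded RNA into siRNAs.

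Levels are given as normalised counts, that is, reads of a family divided by the size factor of the sample. The reads behind them could be recovered, and TE reads per sample ran from 78807 to 343458. The lowest count of a member in any sample was 42 reads (gypsy3 in no-KD), well above the 3 reads taken as the detection floor. The 6 families together held 1.06% ± 0.0084 of the TE signal in no-KD, 4.29% ± 0.0589 in piwi-sKD, 6.29% ± 0.321 with sh-w and 10.3% ± 1.55 with sh-dcr2 (SD, n = 2 in each group). Such shares are not comparable between the tables. The Tirant family had means of 111 and 135 normalised counts in no-KD and piwi-sKD, but 64353 with sh-w and 60475 with sh-dcr2. The whole TE signal of the sh-w samples was 192945 and 179192. The 2 tables were normalised separately by the authors, so tests were made within a table only.

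The first comparison asked how these families respond when Piwi is depleted in follicle cells. Gtwin, gypsy and gypsy6 were each more than 9-fold higher in piwi-sKD than in no-KD and springer was 3.76-fold higher, whereas gypsy3 and gypsy10 stayed under 2-fold. Summed over the 6 families, the level of no-KD was 878 ± 58.8 normalised counts, and that of piwi-sKD 9213 ± 1112 (SD, n = 2). Temperature and Piwi depletion cannot be told apart in this comparison, because the groups differ in both.

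Gtwin had the highest level of the 6 in each of the 8 samples. It stood at 332 and 369 normalised counts in no-KD, against 5450 and 6305 in piwi-sKD. The lowest piwi-sKD value was 14.8 times the highest no-KD value, and the ratio of the means was 16.8. The log2 fold change, on the log2(normalised count + 1) scale used throughout, came to 4.06 ± 0.11 (SE; limma adjusted p = 1.08e-08). SEs and p-values of this comparison rest in part on a trend of spread over all families by level (6.11 prior degrees of freedom). They are not the replicate spread of a single family alone.

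Gypsy itself stood at 94.9 and 76.7 normalised counts in no-KD, where only 88 and 76 reads were counted. In piwi-sKD it was at 1041 and 1257. Both piwi-sKD samples were far above both no-KD samples, with a log2 fold change of 3.73 ± 0.15 (SE; limma adjusted p = 1.38e-07). Gypsy6 went from 166 and 131 normalised counts in no-KD to 1207 and 1602 in piwi-sKD, and its log2 fold change of 3.23 ± 0.17 also passed the threshold (SE; limma adjusted p = 4.12e-07). The 3 families took ranks 3, 6 and 9 from the top among the 109 families tested.

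Springer started at about the level of gypsy6, with 160 and 129 normalised counts in no-KD, but reached only 494 and 592 in piwi-sKD. The groups did not overlap, with a log2 fold change of 1.91 ± 0.16 (SE; limma adjusted p = 9.18e-06). Springer held 17.4% and 15.4% of the signal of the 6 families in the no-KD samples, against 5.86% and 5.92% after depletion of Piwi.

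Gypsy3 and gypsy10 were near the bulk of all families. Gypsy3 was at 63.6 and 42.4 normalised counts in no-KD, against 83.7 and 110 in piwi-sKD, a log2 fold change of 0.87 ± 0.25 (SE; limma adjusted p = 0.0163). Gypsy10 was at 104 and 87.8 in no-KD, against 152 and 135 in piwi-sKD, a log2 fold change of 0.58 ± 0.17 (SE; limma adjusted p = 0.0175). The groups did not overlap in either family, but the gaps were small: the lowest piwi-sKD sample was 1.32 times the highest no-KD sample for gypsy3 and 1.30 times for gypsy10.

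**Figure D1:**
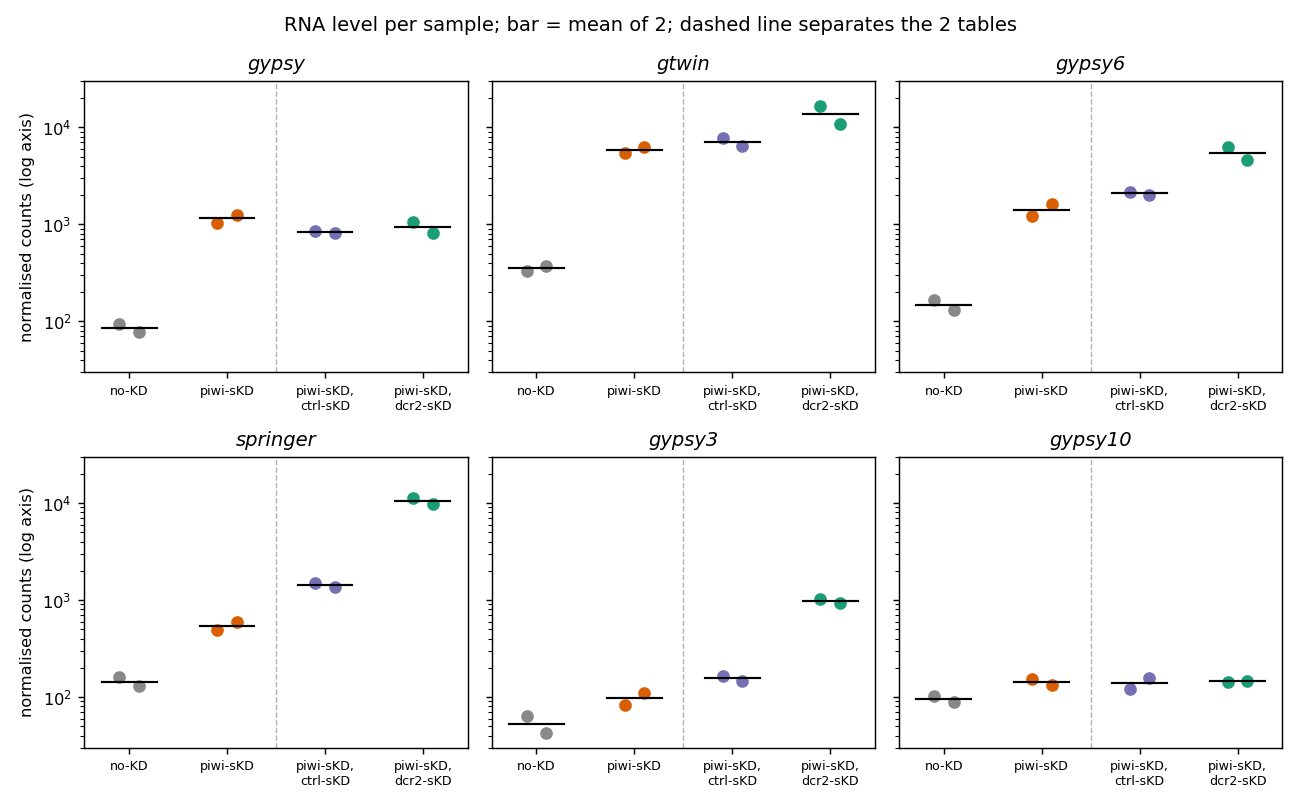
Normalised counts (log axis) of each of the 6 families in the 8 samples, by group; points are samples, bars are means of 2, and the dashed line separates the tables that were normalised separately. Gtwin, gypsy and gypsy6 step up from no-KD to piwi-sKD, springer and gypsy3 step up most with the sh-dcr2 hairpin (springer to 11269 and 9775 normalised counts), and gypsy10 lies between 87.8 and 157 normalised counts in all 8 samples.

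By the limma threshold (adjusted p under 0.05) 6 of the 6 families were higher and 0 were lower. Over all 109 families tested, 55.0% were called higher and 5.5% lower. More than 2-fold higher were 4 of the 6 and more than 2-fold lower 0, against 28.7% and 1.85% of the 108 families with a ratio. The median log2 fold change was 2.57 for the 6 families and 0.47 for all families tested. Relative to that common shift, gtwin rose by 3.59, gypsy by 3.26, gypsy6 by 2.76 and springer by 1.44 on the log2 scale, while gypsy3 was 0.40 and gypsy10 was 0.11 above it.

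The calls of gypsy3 and gypsy10 depended on single libraries and on the scaling. Without no-KD replicate 2, the log2 fold change of gypsy3 was 0.58 (limma adjusted p = 0.0803) and that of gypsy10 was 0.46 (limma adjusted p = 0.0561). Without piwi-sKD replicate 2 they were 0.68 and 0.67 (limma adjusted p = 0.174 and 0.131), and without piwi-sKD replicate 1 gypsy10 was at 0.49 (limma adjusted p = 0.284). Scaled to an equal TE sum, they were lower in piwi-sKD, at -0.48 and -0.78. With the median log2 level over families made equal between samples, they stood at -0.30 and -0.59. That scaling equalises the median level of each sample, and differs from subtracting the median log2 fold change of 0.47 as above. Over all 13 alternatives the limma adjusted p-values ran from 0.000791 to 0.247 for gypsy3 and from 5.72e-05 to 0.284 for gypsy10, where 0.247 and 5.72e-05 belong to the scalings that turned the direction. The other 4 families were higher under all 13.

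The second comparison asked whether Dcr2 limits the RNA of these families once Piwi is depleted. Springer and gypsy3 were 7.35-fold and 6.32-fold higher with sh-dcr2 than with sh-w, and gypsy6 and gtwin were 2.60-fold and 1.92-fold higher. For gypsy and gypsy10 no difference was detected. The summed level of the 6 families was 11722 ± 1208 normalised counts with sh-w and 31616 ± 6603 with sh-dcr2 (SD, n = 2). The groups came from separate crosses, and an effect of the cross and that of sh-dcr2 cannot be told apart.

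Springer stood at 1505 and 1359 normalised counts with sh-w and at 11269 and 9775 with sh-dcr2. The lowest sample with sh-dcr2 was 6.49 times the highest with sh-w. Its log2 fold change of 2.87 ± 0.15 (SE; limma adjusted p = 3.55e-47) ranked first of the 110 families tested. The fit of this comparison took the spread of each family wholly from a trend over all families by level (infinite prior degrees of freedom). The SEs, intervals and p-values of this comparison therefore do not reflect the replicate spread of springer or of any other single family.

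Gypsy3 ranked second. It was at 167 and 145 normalised counts with sh-w and at 1035 and 931 with sh-dcr2, a log2 fold change of 2.65 ± 0.15 (SE; limma adjusted p = 4.48e-43). Of the 6 families it had the smallest change but for gypsy10 in the first comparison and the largest but for springer in the second.

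Gypsy6 ranked sixth, with 2170 and 2002 normalised counts with sh-w and 6270 and 4570 with sh-dcr2. The groups did not overlap, with a log2 fold change of 1.36 ± 0.15 (SE; limma adjusted p = 2.52e-16). Gtwin was at 7768 and 6386 with sh-w and at 16504 and 10706 with sh-dcr2. These groups did not overlap either, at a log2 fold change of 0.92 ± 0.17 (SE; limma adjusted p = 1.23e-06). The SE is again the shared one and does not reflect gtwin's own spread. Its log2 ratio of replicate 1 to replicate 2 was 0.28 with sh-w and 0.62 with sh-dcr2.

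The rise of gtwin was the least secure of the 4. Behind its levels with sh-dcr2 were 17725 and 10303 reads. Without piwi-sKD,dcr2-sKD replicate 1 the log2 fold change was 0.60 (limma adjusted p = 0.0404), and without piwi-sKD,ctrl-sKD replicate 2 it was 0.77 (limma adjusted p = 0.127). It was 0.19 with the TE sum made equal and 0.39 with the median log2 level made equal between samples (limma adjusted p = 0.241 and 0.0978). The TE sum was itself higher with sh-dcr2 (319798 and 294253, against 192945 and 179192 with sh-w). Relative to the median log2 fold change of all families, gtwin stood at 0.68. Over the 13 alternatives the limma adjusted p-values ran from 7.40e-08 to 0.241.

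Gypsy was at 845 and 819 normalised counts with sh-w and at 1065 and 819 with sh-dcr2, so that the groups overlapped. Its log2 fold change of 0.17 had a 95% interval from -0.11 to 0.44 (limma adjusted p = 0.379). That interval uses the spread shared over families and not that of gypsy's own replicates, so it sets no bound on a rise. Gypsy10 was at 121 and 157 with sh-w and at 142 and 148 with sh-dcr2. Its log2 fold change was 0.07, with a 95% interval of the same kind from -0.28 to 0.42 (limma adjusted p = 0.803). Both families were lower with the TE sum made equal (-0.55 and -0.65) and with the median log2 level made equal between samples (-0.36 and -0.46).

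**Figure D2:**
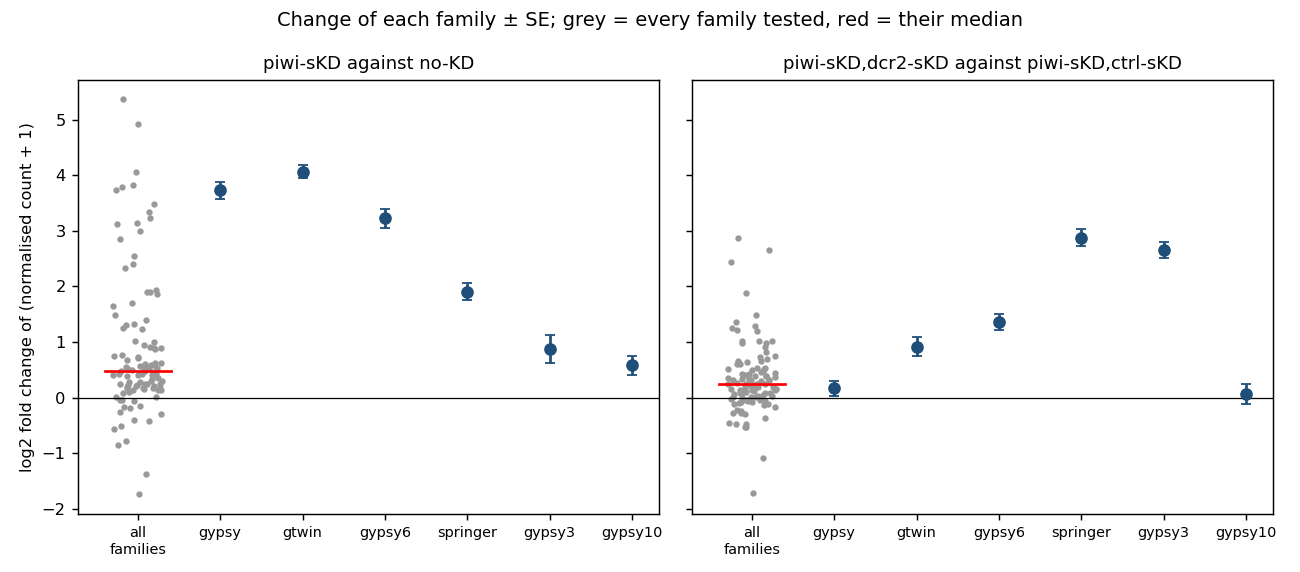
Log2 fold change of (normalised count + 1), with its SE, for the 6 families in the 2 comparisons (blue), beside all families tested (grey points, 109 and 110, red line at their median of 0.47 and 0.24). Gypsy stands at 3.73 in the left panel and at 0.17 in the right, and springer and gypsy3 reach the top of the right panel at 2.87 and 2.65.

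By the limma threshold 4 of the 6 families were higher and 0 were lower, against 27.3% of the 110 families tested called higher and 3.64% lower. More than 2-fold higher were 3 of the 6 and more than 2-fold lower 0, against 11.9% and 2.75% of the 109 families with a ratio. The median log2 fold change was 1.14 for the 6 families and 0.24 for all families tested. Relative to that shift springer rose by 2.64, gypsy3 by 2.42, gypsy6 by 1.12 and gtwin by 0.68 on the log2 scale, while gypsy stood at -0.07 and gypsy10 at -0.17.

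Ratios between families within a sample do not depend on the scaling. Gypsy was 28.6% and 20.8% of gtwin in no-KD, against 19.1% and 19.9% in piwi-sKD. It was 10.9% and 12.8% of gtwin with sh-w and 6.45% and 7.65% with sh-dcr2. Within each table both samples of the second group lay below both of the first. With 2 samples against 2, an exact two-sided permutation test cannot give a p under 0.333, and none is given for these ratios.

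Springer was lower relative to gtwin in piwi-sKD than in no-KD, and higher with sh-dcr2 than with sh-w. It was 48.1% and 35.0% of gtwin in no-KD, against 9.06% and 9.39% in piwi-sKD, a difference larger than the spread between replicates. With sh-w it was 19.4% and 21.3% of gtwin, and with sh-dcr2 68.3% and 91.3%. The make-up of the 6 families shifted accordingly. Gtwin held 36.1% and 44.1% of their summed signal before and 64.7% and 63.0% after depletion of Piwi (no-KD and piwi-sKD), 61.8% and 58.8% with sh-w, and 45.5% and 39.7% with sh-dcr2, where springer held 31.1% and 36.3%.

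**Figure D3:**
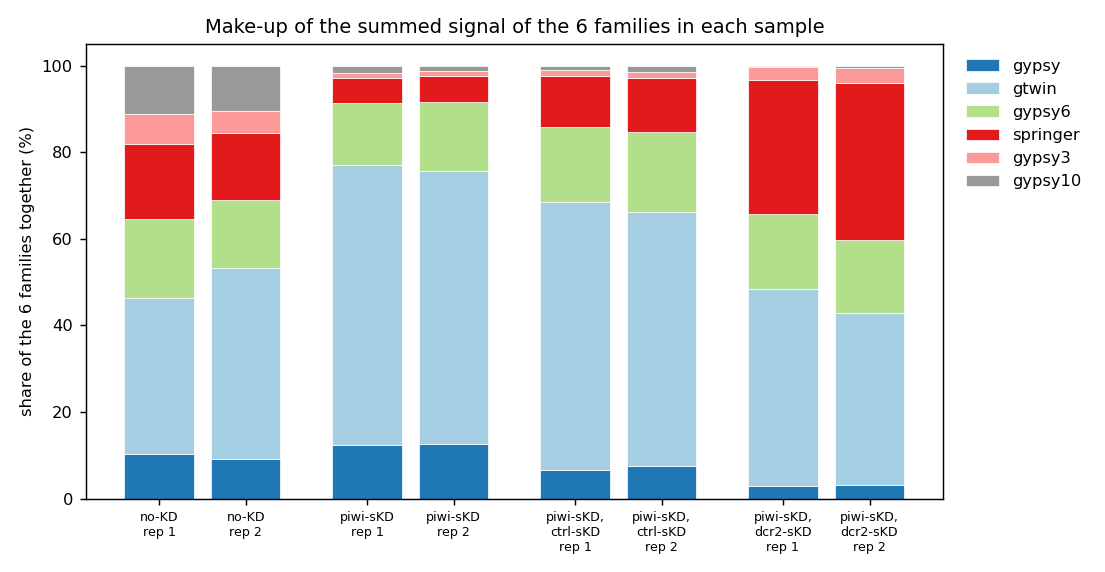
Share (%) of each of the 6 families in their summed normalised counts, 1 bar per sample. Gtwin takes 64.7% and 63.0% of the bars of piwi-sKD, and springer 31.1% and 36.3% of those of piwi-sKD,dcr2-sKD, against 17.4% and 15.4% in no-KD; gypsy10 shrinks from 11.3% and 10.5% in no-KD to 0.39% and 0.548% with sh-dcr2.

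Levels of different families were compared per kb of their longest reference insertion that no other annotated TE overlapped (7465 bp for gypsy, 7411 bp for gtwin, 7654 bp for gypsy6, 6357 bp for gypsy10 and 7543 bp for springer). These are levels of whole families and not of single copies. Gypsy3 had no such insertion over 818 bp and was left out. In no-KD the levels per kb were 47.3 ± 3.55 normalised counts for gtwin, 19.4 ± 3.22 for gypsy6, 19.1 ± 2.85 for springer, 15.0 ± 1.75 for gypsy10 and 11.5 ± 1.72 for gypsy (SD, n = 2). Gypsy6 and springer did not differ beyond their spread.

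In piwi-sKD the order was gtwin (793 ± 81.6 per kb), gypsy6 (183 ± 36.5), gypsy (154 ± 20.4), springer (72.0 ± 9.21) and gypsy10 (22.5 ± 1.93). Gypsy had passed springer and gypsy10, and it lay within the spread of gypsy6. With sh-w the order was gtwin (955 ± 132 per kb), gypsy6 (273 ± 15.6), springer (190 ± 13.7), gypsy (111 ± 2.39) and gypsy10 (21.9 ± 3.93). With sh-dcr2 it was gtwin (1836 ± 553 per kb), springer (1395 ± 140), gypsy6 (708 ± 157), gypsy (126 ± 23.3) and gypsy10 (22.7 ± 0.670). There gtwin and springer did not differ beyond the spread of gtwin.

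Piwi was targeted without sh-dcr2 in 2 groups, piwi-sKD and piwi-sKD,ctrl-sKD, of which the latter also carried sh-w. They come from different genotypes and tables and are set side by side without a test. Springer was at 543 ± 69.5 and 1432 ± 104 normalised counts in these groups, with 0.249% and 0.256% of the TE signal in the samples of the former and 0.780% and 0.758% in those of the latter. That TE signal includes Tirant, at a mean of 135 normalised counts in the former and 64353 in the latter. Gypsy6 was at 1404 ± 279 and 2086 ± 119, gypsy3 at 96.7 ± 18.4 and 156 ± 15.6, and gtwin at 5877 ± 605 and 7077 ± 977 (SD, n = 2). Gypsy was at 1149 ± 152 and 832 ± 17.8, the only member besides gypsy10 with the lower mean in piwi-sKD,ctrl-sKD. Gypsy10 was at 143 ± 12.3 and 139 ± 25.0.

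Gypsy3 and springer followed each other across samples, and their annotated insertions overlap. In the second table gypsy3 stood at 11.1% and 10.6% of springer with sh-w and at 9.19% and 9.52% with sh-dcr2, while both levels rose more than 6-fold. In the first table it stood at 39.9% and 32.8% of springer in no-KD, against 16.9% and 18.5% in piwi-sKD. For each 100 normalised counts that springer gained, gypsy3 gained 11.0 in the first comparison (6.004 to 14.6 over the pairs of single samples) and 9.11 in the second (8.90 to 9.35).

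**Figure D4:**
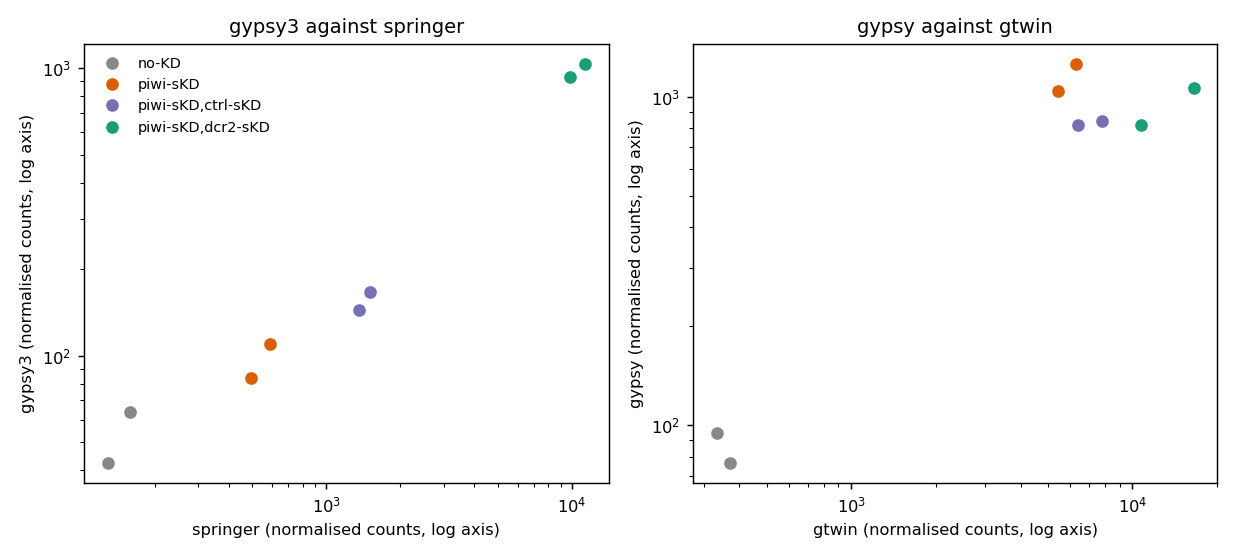
Normalised counts of gypsy3 against springer (left) and of gypsy against gtwin (right), log axes, 1 point per sample coloured by group. Gypsy3 climbs with springer through all groups up to 1035 and 931 normalised counts, whereas gypsy stays between 819 and 1257 in the 6 samples outside no-KD while gtwin runs from 5450 to 16504.

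In the BDGP6.54 annotation, 43.3% of the bases annotated as gypsy3 (10575 of 24430 bp) lay inside spans annotated as springer, and 91.7% lay inside spans of some other family. The largest overlap of gypsy3 was not with springer but with Cr1a, at 13519 bp (55.3%). Cr1a had log2 fold changes of 1.25 in the first comparison and 0.60 in the second, against 0.87 and 2.65 for gypsy3. The gypsy3 insertion on chromosome 3R from 7695710 to 7703427 (7718 bp) covers the springer insertion from 7696150 to 7703338 (7189 bp) completely, outside annotated genes, and an invader3 span covers both. The study counted TE reads with TEcount on TE copies of the reference genome. It does not state how reads matching more than 1 family were assigned. These overlaps are of coordinates and do not by themselves show common sequence. Their part in the levels of gypsy3 was not tested.

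The other members overlapped each other little. Spans of gypsy and gtwin overlapped over 323 bp, 0.504% of gypsy and 0.872% of gtwin. Gypsy6 overlapped springer over 466 bp and gypsy3 over 205 bp, and of its 27945 annotated bp 3.59% lay in spans of any other family. For gypsy that share was 25.0%, for springer 34.0%, for gtwin 46.5% and for gypsy10 51.7%. The span of gtwin on chromosome 2L from 20176783 to 20191109 (14327 bp) lay wholly in an invader3 span, and that of gypsy10 on chromosome 3L from 23515334 to 23529036 (13703 bp) wholly in a HMS-Beagle span.

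The families also differ in how many long insertions the reference holds. Springer and gypsy had 22 insertions each, of which 7 each were at least 5000 bp long. Gtwin had 20 with 3 of that length, gypsy6 had 16 with 3, gypsy3 had 15 with 2, and gypsy10 had 8 with 3. These are lengths of annotated spans. Both long gypsy3 spans (13519 and 7718 bp) lay wholly in spans of other families. So did the spans of 14327 bp for gtwin, 13703 bp for gypsy10, 7466 bp for gypsy, and 7629 and 7189 bp for springer. An uninterrupted gtwin of 7411 bp lay on chromosome X from 1628029 to 1635439 in introns of br and Mur2B. The longest uninterrupted gypsy lay on chromosome 3L from 25896412 to 25903876 in an intron of l(3)80Fg. The longest uninterrupted gypsy6 lay on chromosome 3L from 27370557 to 27378210 in an intron of Dbp80, and that of gypsy10 on chromosome 3R from 603434 to 609790 in an intron of Myo81F. An uninterrupted springer of 7543 bp lay on chromosome 3R from 31074284 to 31081826 in an intron of Sox100B. Which copies these flies carry was not analysed here, and counts of a family cannot be assigned to a site.

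**Figure D5:**
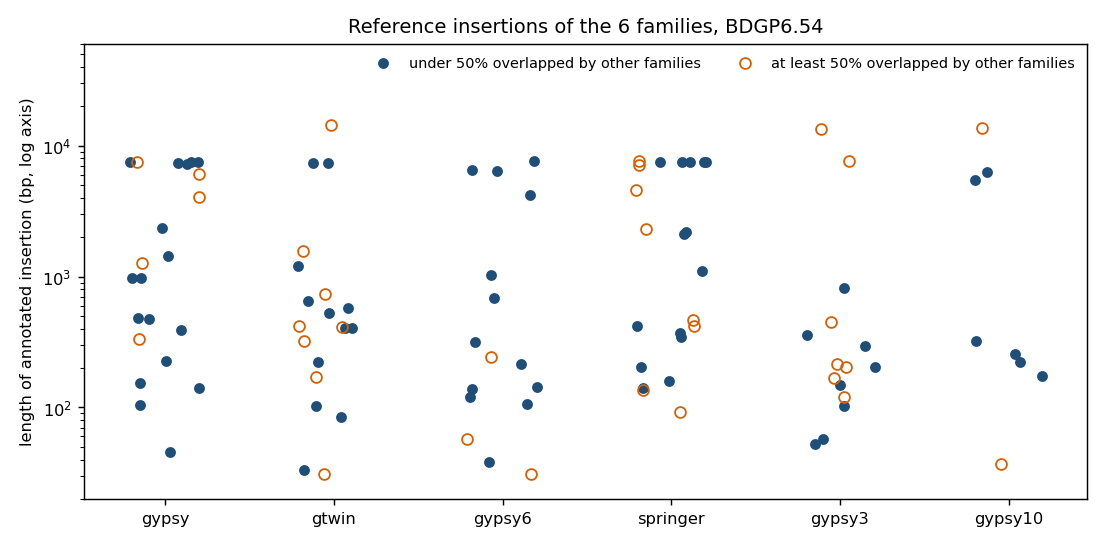
Length (bp, log axis) of each annotated insertion of the 6 families in BDGP6.54; filled points are overlapped by other annotated families over less than 50% of their length, open points over at least 50%. Both gypsy3 insertions of at least 5000 bp are open, whereas gypsy, gtwin, gypsy6, gypsy10 and springer each have filled ones of that length.

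Insertions of 5 of the 6 families lay in flam, the main source of follicle cell piRNAs, where 24 of the 156 annotated families, these 5 included, had insertions. In the annotation flam runs on chromosome X from 21631891 to 21790731 on the plus strand, and 47 annotated TE insertions overlap it, of which 37 (78.7%) are on the opposite strand. The 6 families contributed 8 of the 47, and all 8 were on the opposite strand. Gypsy6 had 3 with 7435 bp in all, springer 2 with 9756 bp, gypsy 1 of 2362 bp, gtwin 1 of 575 bp and gypsy3 1 of 293 bp. Gypsy10 had 0. The long gypsy6 insertion runs from 21733229 to 21739733 and the long springer insertion from 21723964 to 21731592, both within introns of flam. All 7629 bp of that springer insertion are also annotated as part of a blood span.

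A gtwin insertion of 7411 bp and a gypsy insertion of 7354 bp lay further along chromosome X, 45641 bp and 54141 bp beyond the annotated end of flam and 1089 bp from each other, both on the minus strand.

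For each member the 3 other families with the most similar profile were sought among 99 families, by the root mean square difference of log2 levels centred within each table, over the 8 samples. Gypsy was closest to accord2 (0.119), which is also an LTR family, followed by the DNA element mariner2 (0.299) and by invader3 (0.347). Gtwin was closest to copia (0.233), invader3 (0.265) and accord2 (0.328), and gypsy6 to blood (0.124), invader3 (0.164) and copia (0.258). Springer was closest to 412 (0.377), Stalker2 (0.396) and blood (0.627). Gypsy3 was closest to Tabor (0.549), the non-LTR element Doc (0.601) and mdg3 (0.601). Gypsy10 was closest to the non-LTR element G2 (0.113), the LTR family Max (0.121) and the I element (0.131), families with log2 fold changes of 0.43 to 0.52 in the first comparison and 0.15 to 0.26 in the second. Among the members themselves gypsy and gtwin (0.323), gtwin and gypsy6 (0.364) and gypsy3 and springer (0.382) were the most alike.

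Some of these similar families also have annotated spans that overlap those of the member. A gypsy insertion of 7466 bp lies wholly in an accord2 span. Spans of gtwin and invader3 overlapped over 14327 bp, and those of springer and blood over 7629 bp. The same gypsy insertion also lies wholly in a diver2 span. Diver2 was not among the most similar families of gypsy, with log2 fold changes of 1.90 in the first comparison and 0.33 in the second. Of the 18 pairs of a member and a most similar family, 4 (22.2%) had overlapping annotated insertions, against 27 (4.55%) of all 594 pairs. Overlap was judged by coordinates alone and does not by itself show common sequence. The part of such overlaps in the likeness was not tested.

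Differences between replicates were compared with those of all families. In piwi-sKD, gypsy, gtwin, gypsy3, gypsy6 and springer were lower in replicate 1, with log2 ratios of replicate 1 to replicate 2 from -0.41 to -0.21, while the median over 105 families was -0.10. With sh-dcr2 the same 5 were higher in replicate 1, from 0.15 for gypsy3 to 0.62 for gtwin. There gtwin, gypsy6 (0.46) and gypsy (0.38) lay above 0.32, the value that 10% of the 105 families exceeded. Gypsy10 lay at 0.17 and -0.06 in these groups. In no-KD gtwin was at -0.15 and the other 4 of the 5 at 0.31 to 0.59, with a median over 105 families of 0.15. With sh-w the 5 lay between 0.04 and 0.28, around a median of 0.14.

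Other families of the group were taken from fixed lists. Of the 8 other families named gypsy, 5 were higher and 0 lower in piwi-sKD against no-KD (55.0% and 5.5% of all families), with a median log2 fold change of 0.46. Gypsy5 was the highest at 4.92 ± 0.12 (SE; limma adjusted p = 7.43e-09) and gypsy7 the lowest at 0.24 ± 0.30 (SE; limma adjusted p = 0.491). With sh-dcr2, 2 were higher (gypsy8 and gypsy12) and 1 was lower (27.3% and 3.64% of all families), with a median of 0.19. The lower one was gypsy5, at -1.09 ± 0.15 (SE; limma adjusted p = 4.44e-11).

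Of 10 other errantiviruses (relatives of gypsy such as ZAM and Idefix), 9 were in the tables. In piwi-sKD 6 were higher and 0 lower, against the same 55.0% and 5.5% of all families, with a median log2 fold change of 0.72, from 0.21 for Idefix (limma adjusted p = 0.312) to 5.36 for ZAM (limma adjusted p = 7.43e-09). With sh-dcr2, 3 were higher and 2 lower, against 27.3% and 3.64%, with a median of 0.15, from -0.46 for ZAM (limma adjusted p = 0.00451) to 0.62.

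The telomeric retrotransposons HeT-A, TAHRE, TART-A and TART-B, which are expressed in the germline, were looked up as a reference for that compartment (4 of 5 listed were in the tables, none at 0). Their summed level was 5180 and 4371 normalised counts in the no-KD samples, 4374 and 4236 after depletion of Piwi, 4010 and 3896 with sh-w, and 4094 and 4146 with sh-dcr2. In piwi-sKD 1 was higher (HeT-A, 0.39) and 2 were lower (TART-A, -0.40, and TART-B, -0.86), with a median of -0.05. With sh-dcr2 their log2 fold changes lay between -0.05 and 0.08 (limma adjusted p from 0.717 to 0.908).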

How the data were processed

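The authors trimmed reads for quality (UrQt), aligned them to FlyBase genes with TopHat2 and counted genes with eXpress. The authors counted TE reads with TEcount (TEtools) on TE copies of the reference genome and normalised genes and TEs together with DESeq2 1.10. The labels name build dm3. The deposited signal is the read count per family divided by the size factor, in 2 tables with factors of their own. All 8 columns were used and 0 left out. Each value was a whole multiple of the step of its sample to within 1e-06 of a read (100% of values), which gave the reads and size factors (0.927 to 1.13). The floor of 3 reads covers counting error only.

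Families not at 0 throughout were tested within a table with limma 3.58.1 in R 4.3.3 (lmFit and eBayes, trended variance). The values tested were log2(normalised count + 1), and p-values were adjusted over all families of the table (Benjamini-Hochberg, threshold 0.05). This scale understates changes of low families. Log2 fold changes are treated minus control. Prior degrees of freedom were 6.11 and infinite.

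The members and lists were chosen with earlier results of these data known. All 6 members are named, and the similar families were taken by smallest root mean square difference among families that averaged 10 or more normalised counts in each table. Insertions came from the Ensembl BDGP6.54 annotation, whose build may differ from that of the TE copies counted. No sequence of the families is printed, because no genome was used here.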

Additional observations from a re-analysis of the deposited data

How the results depend on the processing

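For the 12 log2 fold changes of the 6 families, 156 values came from 13 alternatives in each comparison, of which 137 stayed on their side of 0 and of the threshold, 9 became weaker and 10 reversed. Pseudocounts of 0.5 and 5, a mean of at least 10 normalised counts, no variance trend, voom weights and the crossed replicate block changed no call of a member; the last of these and voom were added after seeing the data. With the TE sum made equal, gypsy3 (-0.48) and gypsy10 (-0.78) reversed in piwi-sKD against no-KD, 2 members were called lower, and 22 families were called higher and 78 lower. With sh-dcr2 against sh-w, gypsy (-0.55) and gypsy10 (-0.65) reversed, 2 members were lower, and 12 families were higher and 65 lower. With the median log2 level made equal between samples, gypsy3 (-0.30) and gypsy10 (-0.59) reversed in the first comparison. In it 1 member was called lower, and 22 families were higher and 70 lower. In the second, gypsy (-0.36) and gypsy10 (-0.46) reversed, with 2 members lower and 15 families higher and 43 lower. As reported, 60 families were higher and 6 lower, and 30 higher and 4 lower. Leaving out 1 replicate in turn gave 46 to 60 families higher and 3 to 5 lower in the first comparison, and 19 to 26 higher and 2 to 5 lower in the second; there gypsy ran from -0.023 to 0.36 (reversed without piwi-sKD,dcr2-sKD replicate 1) and gypsy10 from -0.12 to 0.25 (reversed without piwi-sKD,ctrl-sKD replicate 1). Members called higher ran from 4 to 6 and from 3 to 4. The replicate numbers share no stated batch, and same-numbered deviations correlated at -0.13 and 0.25 over 105 families. The replicate block gave 53 families higher and 5 lower, and 33 higher and 3 lower; among the members it changed the call of gypsy3 in the first comparison alone (limma adjusted p = 0.0575, within 0.000791 to 0.247 over its alternatives, reversed ones included). Crossed, it gave 64 and 8, and 36 and 4. A shorter reference length (median of the 3 longest insertions) changed the level per kb of gypsy6 only. It moved by more than its SD in no-KD (to 22.8) and in piwi-sKD,ctrl-sKD (to 321). Count models and their scalings, the search for shared words of sequence and lengths between LTRs were not run. With 2 samples a group, the cause of the reversals was not tested beyond these scalings.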
